A study of Mus musculus with 8 samples.

Results

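The CD3 chains and pre-TCR alpha are the signalling and surrogate parts of the T cell receptor (TCR), and they were followed here in mouse double positive thymocytes, the thymic stage named for its joint display of CD4 and CD8. The members were the 5 genes Cd3g, Cd3d, Cd3e, Cd247 and Ptcra, of 8251 genes named on the array. All probe sets that the platform annotation maps to 1 of these symbols alone were taken, which gave 7 of 12422 probe sets: 1 each for Cd3g, Cd3e and Ptcra and 2 each for Cd3d and Cd247.

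The TCR alpha and beta chains bind ligand but have almost no cytoplasmic tail. Signal passes through the invariant chains CD3 gamma, delta and epsilon, which sit beside them as gamma-epsilon and delta-epsilon dimers, and through the CD247 (zeta) homodimer. Their tails carry immunoreceptor tyrosine-based activation motifs (ITAMs), which the kinase Lck phosphorylates and the kinase ZAP-70 then binds. Ptcra encodes pre-TCR alpha, a surrogate alpha chain that pairs with a newly made beta chain on earlier, double negative thymocytes, before the alpha locus is rearranged.

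Total RNA was measured on 8 arrays, 2 in each of 4 groups that the titles name control, overnight control, Valpha2 and Vbeta5. The series concerned TCR engagement by antibodies, where Valpha2 names a variable region of alpha chains and Vbeta5 one of beta chains. Apart from the word overnight, the labels state no strain, genotype, age, antibody clone, dose or time. Nor do they say whether the arrays of a group came from separate animals or cultures, so the p-values reflect no more than how far these arrays differ, which may be technical. What all groups share is the labelled cell type, and 1 array of each group is numbered 1 and the other 2.

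On the labelled cell type, 8 of 11 double positive markers were on the array, and their summed signal was 35969 to 43761 in control, 51597 to 55922 in the overnight control, 43003 to 55294 with Valpha2 and 12254 to 22251 with Vbeta5. Cd8b1, Rag1, Dntt and Cd8a were the brightest of them on every array. Cd1d1 overlapped, with 588.9 and 749.1 with Vbeta5 and 594.5 to 1037 on the other arrays, while each other marker was lower on both Vbeta5 arrays than elsewhere. The 5 double negative markers summed to 339.5 to 397 with Vbeta5 and to 211 to 306 on the other arrays, most of it with Vbeta5 from Spn (136.5 and 174) and Il7r (100.5 and 128), while Il2ra, Kit and Cd44 lay within the range of the other arrays. The summed signal of 5 of 7 mature thymocyte markers was 2632 to 3548 with Vbeta5 against 472 to 874 on the other arrays, where Itm2a alone gave 2349 and 3301 with Vbeta5. Of the lists for other cells, the 8 macrophage markers summed to 338 to 1149 over the 8 arrays, the 6 dendritic and class II markers to 440 to 1257, and the 7 fibroblast and endothelium markers to 668 to 2002. The 6 granulocyte markers summed to 176 to 714, 4 of 6 erythroid markers to 159 to 489, 5 of 10 NK and gamma delta T cell markers to 278 to 766 and 5 of 6 thymic epithelium markers to 62.3 to 226. Of 7 B cell markers 6 summed to 2653 to 5288, with the mu heavy chain gene Ighm alone at 2207 to 4490. Overnight control array 1 had the highest sum for 7 of these 8 lists of other cells, all but the erythroid one. The double positive sum was highest there too (55922). That array also had the highest median signal over all probe sets, 110.25 against 73.65 to 91.6 on the other arrays. It had the fewest probe sets below 16.6, at 11.86% against 15.28% to 24.28%. The part of this general brightness in the sums was not tested. No marker listed was at 0, and Lyz2 was below 16.6 on every array. As a sign of RNA quality, the Gapdh controls at the 3' end exceeded those at the 5' end by 1.72 (log2) on Valpha2 array 1, by 0.95 on array 1 of the overnight control and by 0.48 on Vbeta5 array 1, and the other 5 arrays gave -0.28 to -0.09. The actin controls gave 1.47, 0.68 and 0.39 on the same 3 arrays and 0 to 0.30 on the other 5. By actin, Vbeta5 array 1 was thus close to overnight control array 2 (0.30). The part of other cells in the results below was not tested, and sign changes without the 3 arrays of lower RNA quality are given in the closing section.

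The start regions of 4 members are shown, picked by the values of these genes on the same arrays. Ptcra and the brighter Cd247 probe set were lowest on both Vbeta5 arrays, and Cd3g and Cd3e varied alike from array to array. No member passed the test described below. The share of all probe sets lowest on both Vbeta5 arrays was not counted. Between Vbeta5 and each other group singly, 31% to 48.4% of all tested probe sets did not overlap, in either direction. Each run is the 250 bases upstream of the start site in RefSeq (GRCm38.p6), 5′ to 3′ on the gene's strand, with every E-box of the form CANNTG in capitals. E-boxes are the motif bound by the E proteins, helix-loop-helix factors of lymphocyte development. The regions are chr17:46763713-46763962 (minus strand) for Ptcra, chr1:165788431-165788680 (plus strand) for Cd247, chr9:44980432-44980681 (minus strand) for Cd3g and chr9:45009612-45009861 (minus strand) for Cd3e.
Ptcra promoter: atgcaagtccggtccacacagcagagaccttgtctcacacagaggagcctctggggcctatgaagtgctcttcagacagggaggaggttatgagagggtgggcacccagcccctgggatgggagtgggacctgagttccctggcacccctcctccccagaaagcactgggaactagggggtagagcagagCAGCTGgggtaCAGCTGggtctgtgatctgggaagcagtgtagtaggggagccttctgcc
Cd247 promoter: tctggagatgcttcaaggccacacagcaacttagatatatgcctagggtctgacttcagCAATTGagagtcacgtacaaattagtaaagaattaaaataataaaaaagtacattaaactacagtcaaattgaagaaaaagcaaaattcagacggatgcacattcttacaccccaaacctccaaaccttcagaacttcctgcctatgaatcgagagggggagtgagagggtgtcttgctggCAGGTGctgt
Cd3g promoter: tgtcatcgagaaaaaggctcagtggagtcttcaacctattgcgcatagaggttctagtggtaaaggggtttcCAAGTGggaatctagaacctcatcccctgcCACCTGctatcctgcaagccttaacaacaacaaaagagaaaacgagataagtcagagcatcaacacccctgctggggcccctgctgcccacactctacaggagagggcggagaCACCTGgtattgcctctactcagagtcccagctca
Cd3e promoter: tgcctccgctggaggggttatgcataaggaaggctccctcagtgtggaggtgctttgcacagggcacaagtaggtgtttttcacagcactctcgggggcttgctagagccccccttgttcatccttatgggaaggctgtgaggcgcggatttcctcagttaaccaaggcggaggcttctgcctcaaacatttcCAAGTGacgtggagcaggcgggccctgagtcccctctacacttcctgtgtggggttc

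The Ptcra region held 2 E-boxes, both with the core CAGCTG, a form found at least 1 time in 13.0% of 32851 RefSeq start regions of this length and at least 2 times in 1.3%. The regions of Cd247, Cd3g, Cd3e and Cd3d held none of this core. They held 2, 3, 1 and 1 E-boxes of the general form, which 66.2% of all regions hold. Both strands were searched, and CANNTG includes CAGCTG. The Ets core GGAA was found 3 times for Ptcra, 1 time for Cd247, 2 times for Cd3g, 5 times for Cd3e and 6 times for Cd3d, on either strand, and 93.4% of all regions hold it. None of the 5 held TATAAA or the Runx core TGTGGT, which 12.4% and 14.0% of all regions hold. Such matches describe letters and do not show binding, and a link between them and the signals was not tested. In the RefSeq gene order Cd3g, Cd3d and Cd3e lie next to each other on chromosome 9, while Cd247 is on chromosome 1 and Ptcra on chromosome 17.

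Of the 7 probe sets 6 were tested. The seventh, a second Cd3d probe set (161863_r_at), had signals of 0.3 to 25.3 on the 8 arrays, below 16.6 on 6 of them, and was left out with the dimmest probe sets (mean signal under 40.3). No member passed the test in any of the 6 pairwise comparisons of the 4 groups (limma, Benjamini-Hochberg over 8281 probe sets, threshold 0.05). At an unadjusted p under 0.05, 2 of the 6 probe sets differed for Vbeta5 against the overnight control and 0 in each of the other 5 comparisons. At that level 8.43% of all tested probe sets differed for Vbeta5 against the overnight control, 1.59% for Valpha2 against it, 8.18% between the antibodies, 9.06% between the overnight control and control, 11.1% for Vbeta5 against control and 7.4% for Valpha2 against control. The share of all tested probe sets that passed was 0.616% for Vbeta5 against the overnight control and 0% for Valpha2 against it (132 probe sets had an unadjusted p under 0.05). It was 0.278% between the antibodies, 0.217% between the overnight control and control, 1.64% for Vbeta5 against control and 0.399% for Valpha2 against control. These shares depend on single arrays: the first was 51 probe sets with all arrays and 0 without Vbeta5 array 2. With so few calls among all probe sets, 0 of 6 is no statement about these members in particular. The comparisons share arrays, so they are not independent of each other. Scaling the arrays to a common median moved the median log2 difference of all tested probe sets by -0.23 for the overnight control, -0.20 for Vbeta5 and -0.14 for Valpha2, each against control, and by less than 0.1 in the other 3 comparisons.

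**Figure D1:**
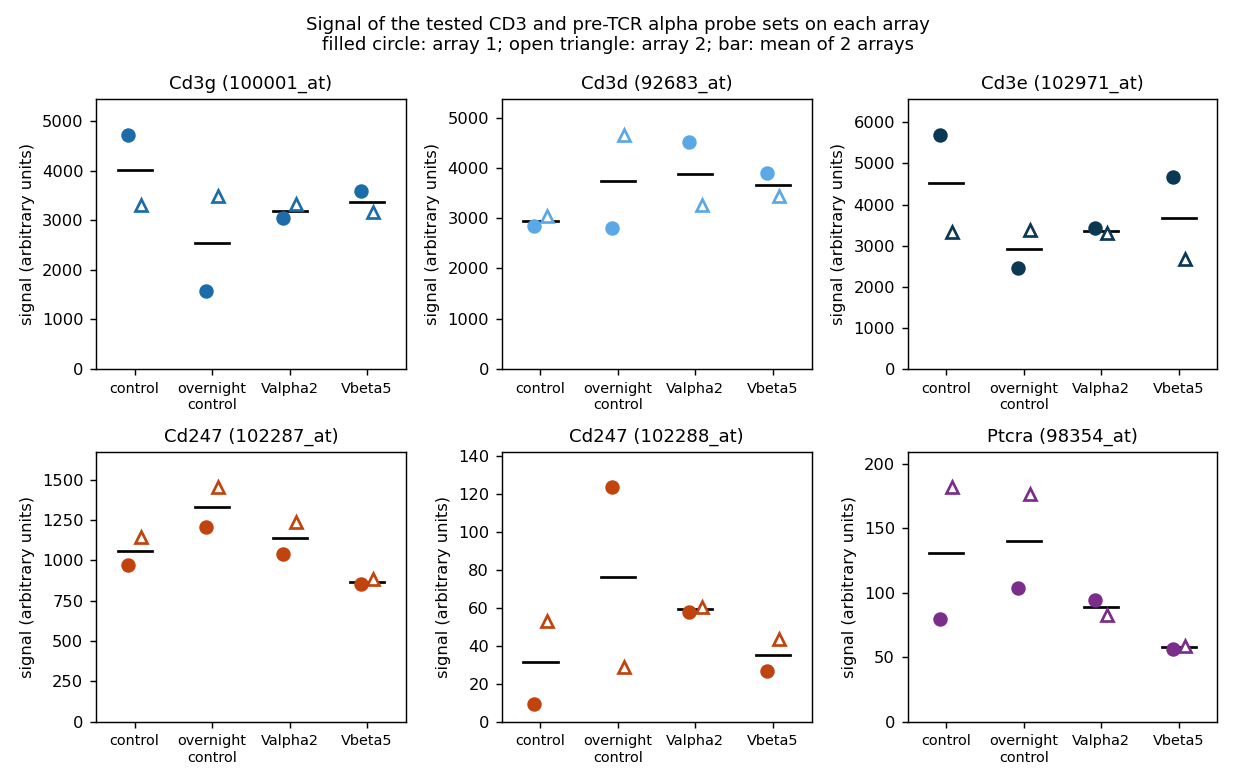
Signal (linear, arbitrary units, axis from 0) of the 6 tested probe sets on each of the 8 arrays, with array 1 as a filled circle, array 2 as an open triangle and the mean of the 2 arrays as a bar. Cd247 (102287_at) and Ptcra were lowest on both Vbeta5 arrays, at 851 and 883 and at 56.3 and 59.0, though neither passed the test. The 2 arrays of a group lay far apart for Cd3g in the overnight control (1566 and 3498).

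Cd3g, which encodes CD3 gamma, gave a signal of 4728 and 3299.8 on the 2 control arrays, 1566 and 3498 on the overnight control arrays, 3036 and 3321 with Valpha2 and 3589 and 3159 with Vbeta5. Overnight control array 1 stood far below the other 7 arrays, and every pair of groups overlapped. The order of the means was overnight control (2532 ± 1370, SD, n = 2), Valpha2 (3179 ± 201), Vbeta5 (3374 ± 304) and control (4014 ± 1010), and no neighbours in this order differed beyond their spread. The overnight control stood 0.75 below control on the log2(signal + 16.6) scale (SE 0.34, 95% interval -1.50 to 0.0001, limma adjusted p = 0.551). Without overnight control array 1 this difference was -0.17 (limma adjusted p = 0.996), and without overnight control array 2 it was -1.33 (limma adjusted p = 0.0587), the smallest adjusted p of any member under any setting. Against the overnight control, Vbeta5 differed by 0.52 ± 0.34 (SE) and Valpha2 by 0.44 ± 0.34, with limma adjusted p-values of 0.806 and 1. Both turned slightly negative without overnight control array 1, to -0.055 and -0.14. Vbeta5 and Valpha2 differed by 0.084, with an interval from -0.67 to 0.83 before adjustment, so differences within it were not excluded. Larger differences could also fail the adjusted test.

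Cd3d encodes CD3 delta, the partner of epsilon in the dimer next to the alpha chain. Its bright probe set (92683_at) gave 2844 and 3036 in control, 2812 and 4662 in the overnight control, 4508 and 3256 with Valpha2 and 3892 and 3434 with Vbeta5. Both arrays of each antibody group lay above both control arrays, the overnight control overlapped every group, and the group means ran from control (2940 ± 135, SD, n = 2) over Vbeta5 (3663 ± 324) and the overnight control (3737 ± 1310) to Valpha2 (3882 ± 886). Relative to control, the log2 difference was 0.38 ± 0.27 (SE) for Valpha2 and 0.31 ± 0.27 for Vbeta5, with limma adjusted p-values of 0.849 and 0.736, and 0.24 and 0.12 with a common median. Against the overnight control Vbeta5 differed by 0.014, with a 95% interval of 0.665 to 1.53 as a fold change, and Valpha2 by 0.081. Of the members, this probe set and the brighter Cd247 probe set varied least: the highest of its 8 signals was 1.66 times the lowest, and its SD over the arrays was 0.284 on the log2 scale, against a median of 0.398 over all tested probe sets.

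Cd3e encodes CD3 epsilon, which is part of both CD3 dimers. It gave 5699.8 and 3341 in control, 2446 and 3382 in the overnight control, 3422 and 3309.7 with Valpha2 and 4669 and 2671 with Vbeta5. Every pair of groups overlapped, and array 1 exceeded array 2 by 1.71 times in control and by 1.75 times with Vbeta5. The means ran from the overnight control (2914 ± 662, SD, n = 2) over Valpha2 (3366 ± 79.2) and Vbeta5 (3670 ± 1410) to control (4520 ± 1670). The log2 difference between the overnight control and control was -0.60 ± 0.32 (SE, limma adjusted p = 0.605), and without control array 1 it was -0.21. Vbeta5 differed from the overnight control by 0.29 ± 0.32, from Valpha2 by 0.070 ± 0.32 and from control by -0.30 ± 0.32, with limma adjusted p-values from 0.789 to 0.982.

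Cd3g and Cd3e deviated in the same direction from the control mean on 7 of the 8 arrays, whereas Cd3d shared its side with Cd3g on 1 array and with Cd3e on 2. The 2 control arrays deviate from their own mean equally and in opposite directions, so they do not count separately. The share of all probe set pairs that reach 7 was not counted. Cd3g and Cd3e were both lowest on overnight control array 1, at -1.33 and -0.83 on the log2 scale, and both highest on control array 1, at 0.26 and 0.38. Cd3d stood at -0.063 and -0.047 on these arrays. As a measure of likeness, the root mean square difference between the profiles over the 8 arrays, each centred on its own mean, was 0.259 between Cd3g and Cd3e, and 1.6% of tested probe sets lay nearer to Cd3g than Cd3e did. It was 0.447 between Cd3g and Cd3d and 0.451 between Cd3d and Cd3e, with 23.5% of probe sets nearer to Cd3g than Cd3d. These values describe 8 arrays that share their scaling and RNA. Overnight control array 1, where both were lowest, had a Gapdh log2 ratio of 0.95 between its ends and the highest sums for most other-cell lists given above. Its median signal over all probe sets was also the highest, at 110.25. The part of RNA quality and of other cells in these low values was not tested.

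**Figure D2:**
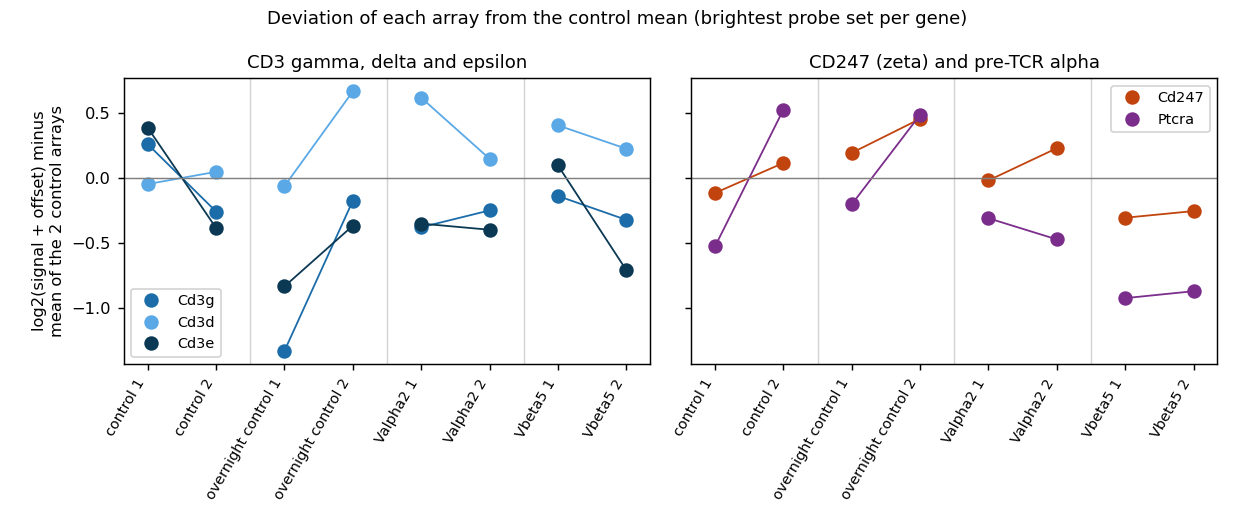
Deviation of each array from the mean of the 2 control arrays, in log2(signal + 16.6), for the brightest probe set of each gene, with lines joining the 2 arrays of a group. Cd3g and Cd3e share their low point on overnight control array 1 (-1.33 and -0.83), and Cd247 and Ptcra are below the control mean on both Vbeta5 arrays (-0.31 and -0.25 for Cd247, -0.92 and -0.87 for Ptcra).

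Cd247 encodes the zeta chain, the richest in ITAMs among the TCR chains, and by alternative splicing the eta form. Its brighter probe set (102287_at) gave 973 and 1145 in control, 1209 and 1451 in the overnight control, 1042 and 1239 with Valpha2 and 851 and 883 with Vbeta5. Both Vbeta5 arrays lay below all 6 other arrays, and both overnight control arrays lay above both control arrays. The order of the means was Vbeta5 (867 ± 22.3, SD, n = 2), control (1059 ± 121), Valpha2 (1140 ± 140) and overnight control (1330 ± 172). Vbeta5 differed from the overnight control by -0.60 ± 0.22 on the log2 scale (SE, 95% interval -1.09 to -0.11), a fold change of 0.659, with an unadjusted p of 0.0202 and a limma adjusted p of 0.424. The direction was the same under all 14 alternative settings of the fit, which gave -0.73 to -0.47 and adjusted p-values from 0.212 to 0.88, none past the threshold.

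The neighbours in this order were closer. Vbeta5 stood at -0.28 ± 0.22 (SE) against control (limma adjusted p = 0.711), Valpha2 at 0.10 ± 0.22 against control (adjusted p = 0.957) and Valpha2 at -0.22 ± 0.22 against the overnight control (adjusted p = 1). Vbeta5 against Valpha2 gave -0.38 ± 0.22 (limma adjusted p = 0.725), so a difference between the antibodies was not shown for this gene. The gap of 0.60 therefore joins a low Vbeta5 group to a high overnight control, which itself stood 0.32 ± 0.22 above control (adjusted p = 0.662). With a common median that difference was 0.095 and the one between Vbeta5 and control was -0.48.

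The other Cd247 probe set (102288_at) was dim, with 9.4 and 52.9 in control, 123 and 28.8 in the overnight control, 57.8 and 60.3 with Valpha2 and 26.8 and 43.5 with Vbeta5. Unlike those of the brighter one, its Vbeta5 arrays overlapped the control and overnight control arrays. As with the brighter one, they lay below both Valpha2 arrays. The 2 overnight control arrays differed by 4.28 times. Its log2 difference between Vbeta5 and the overnight control was -0.64 ± 0.68 (SE, limma adjusted p = 0.948), which became 0.17 without overnight control array 1. The annotation does not say which transcript forms either probe set reads.

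Ptcra had signals of 79.4 and 182 in control, 103 and 176 in the overnight control, 94.8 and 83.0 with Valpha2 and 56.3 and 59.0 with Vbeta5. Its mean was brighter than that of 53.2% of all probe sets, and no array was below 16.6, which is not a detection limit. On the Vbeta5 arrays its signals of 56.3 and 59.0 lay below the median signal over all probe sets (90.85 and 90.55). Whether these signals stood above background was not tested. Both Vbeta5 arrays lay below all 6 other arrays and within 1.05 times of each other, while the control arrays differed by 2.29 times. The means ran from Vbeta5 (57.65 ± 1.91, SD, n = 2) over Valpha2 (88.9 ± 8.34) and control (130.6 ± 72.4) to the overnight control (139.9 ± 51.6). The log2 difference between Vbeta5 and the overnight control was -1.04 ± 0.45 (SE, 95% interval -2.04 to -0.04), a fold change of 0.488, with an unadjusted p of 0.0436 and a limma adjusted p of 0.561. All 14 alternative settings gave the same direction, from -1.38 to -0.69, with adjusted p-values from 0.311 to 0.98.

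Against control, Ptcra with Vbeta5 stood at -0.89 ± 0.45 (SE, limma adjusted p = 0.516), with -1.42 without control array 1 and -0.37 without control array 2. With Valpha2 it stood at -0.53 ± 0.45 against the overnight control, where both Valpha2 arrays lay below both overnight control arrays, and at -0.39 ± 0.45 against control, with adjusted p-values of 1 and 0.915. The former was -0.87 without overnight control array 1 and -0.19 without array 2, and the latter -0.91 without control array 1 and 0.13 without array 2. Vbeta5 and Valpha2 differed by -0.50 ± 0.45 (adjusted p = 0.869), and the overnight control and control by 0.14 ± 0.45 (adjusted p = 0.938), the last of which turned to -0.086 with a common median. No neighbouring pair of groups in the order differed beyond its spread by this test. On the same arrays the double positive markers summed lower with Vbeta5, as given above, and since whole samples were measured, fewer cells of a type and less RNA per cell cannot be told apart.

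**Figure D3:**
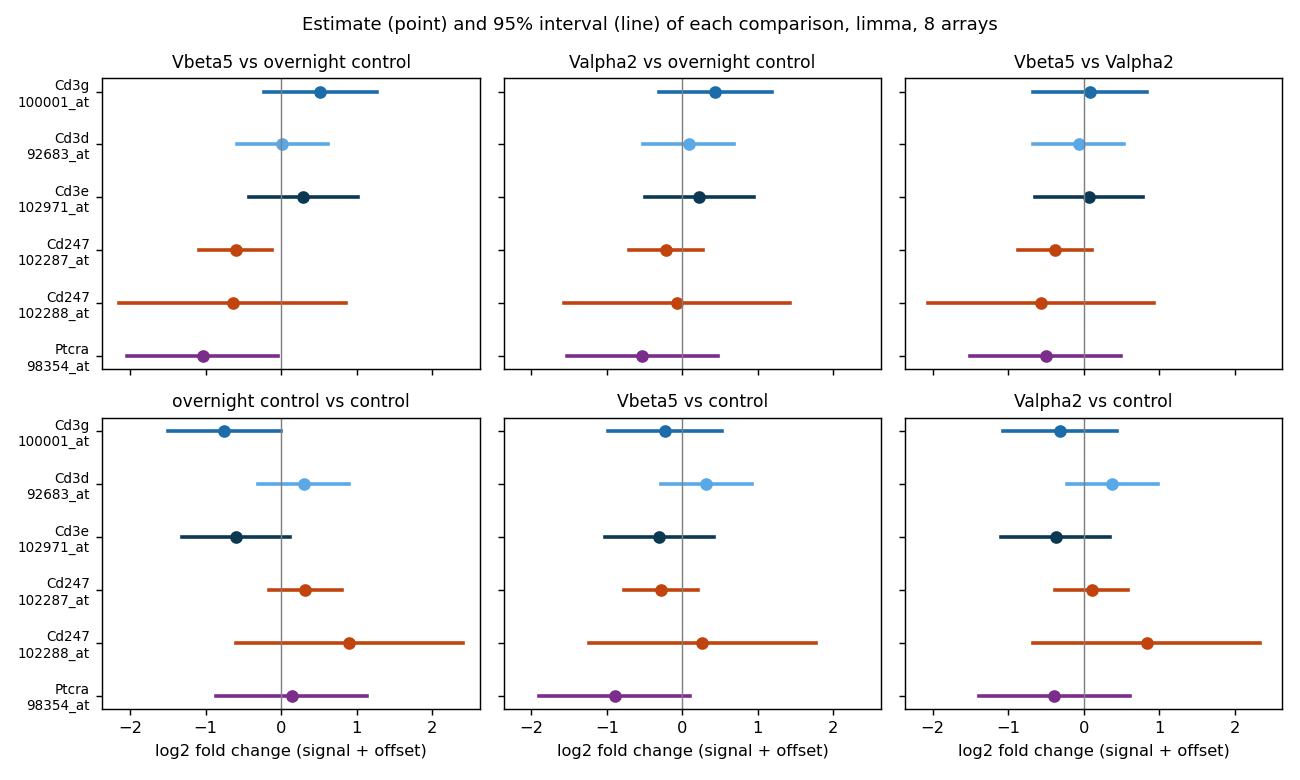
Log2 fold change on the log2(signal + 16.6) scale (point) and 95% interval (line) of the 6 tested probe sets in each of the 6 comparisons, from 1 limma fit of the 8 arrays. The intervals of Cd247 (102287_at, -1.09 to -0.11) and Ptcra (-2.04 to -0.04) lie below 0 for Vbeta5 against the overnight control before adjustment. All other intervals include 0, that of Cd3g for the overnight control against control only just.

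Counted by arrays alone, 2 of the 6 tested member probe sets had groups that did not overlap for Vbeta5 against the overnight control, both lower (Cd247 and Ptcra), where 31% of all tested probe sets had groups that did not overlap. The count was 1, lower (Ptcra), for Valpha2 against the overnight control, where the share of all probe sets was 20.7%, and 3, all lower (both Cd247 probe sets and Ptcra), for Vbeta5 against Valpha2, where it was 40.3%. It was 1, higher (Cd247), for the overnight control against control with 37.9% of all probe sets. For Vbeta5 against control it was 3, with Cd3d higher and Cd247 and Ptcra lower, against 48.4%, and for Valpha2 against control it was 2, Cd3d and the dim Cd247 probe set, both higher, against 42.5%. With 6 probe sets these counts were near the shares of all probe sets. How many of all probe sets were lowest on both Vbeta5 arrays, like the brighter Cd247 probe set and Ptcra, was not counted. No exact permutation test was run on single genes, because with 2 arrays in each group its smallest two-sided p is 0.333.

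The genes around the receptor were taken from 4 lists, each gene by its brightest tested probe set. Of 33 genes downstream of the CD3 ITAMs, 21 were tested and 0 passed in any of the 6 comparisons. For Vbeta5 against the overnight control 10 were higher and 11 lower, with a median log2 difference of -0.067 against -0.011 over all probe sets tested, and the smallest p belonged to the Src family kinase gene Fyn at 0.90 (limma adjusted p = 0.168). In the other comparisons it belonged to Prkcq (Valpha2 against the overnight control, 0.33, and overnight control against control, -0.82), Tec (Vbeta5 against Valpha2, -0.96, and Valpha2 against control, 0.59) and Lat (Vbeta5 against control, 0.88), with limma adjusted p-values of 0.23 to 1. The other tested Prkcq probe set gave 0.098 and -0.013 in the same comparisons. Of 16 coreceptor, receptor partner and TCR chain genes 7 were tested, none of them a constant region of a TCR chain. For Vbeta5 against the overnight control 2 rose, 0 fell and 5 did not pass, with a list median of 1.08.

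The 2 that rose were Cd2, an adhesion receptor, by 2.68 ± 0.38 (SE), and Cd5, a surface receptor that dampens TCR signals, by 2.38 ± 0.41, with limma adjusted p-values of 0.015 and 0.0301. Cd2 lost its call without 3 of the 4 arrays compared, taken singly (adjusted p up to 0.177), and so did Cd5 (up to 0.284). Without the trend in the fit both calls also ended (0.137 and 0.173), as did that of Cd5 with a common median (0.0918). Both rises were measured from a low overnight control. The mean signal of Cd2 was 3888 with Vbeta5, 597.8 in the overnight control and 2174 in control, and that of Cd5 was 5047, 1006 and 2727. Against control, Vbeta5 stood at 0.83 for Cd2 and 0.88 for Cd5 (limma adjusted p = 0.465 and 0.466). Cd5 did not pass against Valpha2 either (1.84, limma adjusted p = 0.122). The coreceptor gene Cd8a fell with Vbeta5, with log2 differences of -1.47 against Valpha2 and -1.41 against control. Cd2 rose against Valpha2 by 2.41, and the coreceptor gene Cd4 fell against control, with -1.72. These 4 calls also ended in 3 or 4 of the 4 fits that left out 1 array, with adjusted p-values up to 0.476. Both calls against Valpha2 ended with a common median (0.107 for Cd8a and 0.131 for Cd2), without the trend (0.241 each) and in the 4 arrays alone (0.141 and 0.111), and that of Cd8a also without the filter (0.0674). Against control, both ended without the trend (0.107 for Cd8a and 0.14 for Cd4), and that of Cd4 with a common median (0.0629). No gene of this list passed for Valpha2 against either control or for the overnight control against control, where the smallest p belonged to Cd5 (0.54), Cd2 (-1.58) and Cd2 (-1.85), with limma adjusted p-values of 1, 0.158 and 0.0929.

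Of 22 Notch, E protein and T lineage regulators 18 were tested. The transcription factor gene Ets2 fell with Vbeta5, with log2 differences of -2.45 against the overnight control, -2.47 against Valpha2 and -2.70 against control (SE 0.30 each). Id3, which encodes an inhibitor of E proteins, rose with Vbeta5 against control by 1.30 ± 0.23 (limma adjusted p = 0.0197). The Id3 call ended without any 1 of the 4 arrays compared, with adjusted p-values of 0.102 to 0.193, and also with a common median or without the trend (0.109 each). The Ets2 calls ended in 1 to 2 of the 4 such fits, with adjusted p-values up to 0.304. Without the trend the Ets2 calls against the overnight control and Valpha2 ended (0.108 and 0.241), and the latter also with a common median (0.0835) and in the 4 arrays alone (0.0703). In the comparison with the overnight control the other 17 did not pass and the list median was -0.20, against -0.011 over all probe sets. None of the 18 passed without Vbeta5 in the comparison, and the smallest p then belonged to Notch3 (-0.53), Notch2 (1.79) and Gata3 (-0.78), with limma adjusted p-values of 0.4 to 1. The other tested Notch2 probe set gave 0.61 for the same comparison, the overnight control against control. Of 9 genes for other ITAM chains and their partners 3 were tested and 0 passed in any comparison. The B cell receptor gene Cd79b had the smallest p in every comparison, at -1.53 for Vbeta5 against the overnight control (limma adjusted p = 0.0653).

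**Figure D4:**
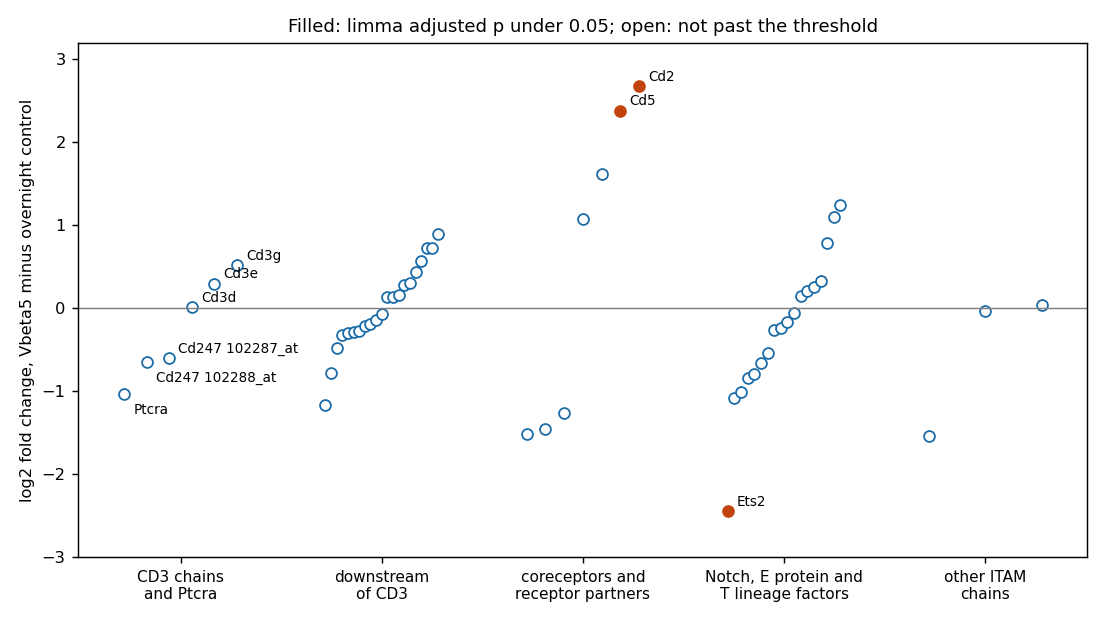
Log2 fold change of Vbeta5 minus overnight control on the log2(signal + 16.6) scale for the 6 tested member probe sets and for the tested genes of 4 lists, each point 1 probe set, filled where the limma adjusted p was under 0.05. The members lie between -1.04 (Ptcra) and 0.52 (Cd3g) with none past the threshold, and the filled points are Cd2 and Cd5 above 0 and Ets2 below.

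Probe sets with the most similar profile were found over the 8 arrays by the same root mean square difference. For Cd3g they were Fbxw5 (0.069), Psmd11 (0.098) and 1110008P14Rik (0.108), where the median of all named probe sets was 0.575. For Cd3e they were Rgl2 (0.124), Htra2 (0.136) and Mast3 (0.144), and for Cd3d Pdcd6 (0.094), Abt1 (0.128) and Nudt9 (0.140). For Cd247 they were Mxd4 (0.109), Spef1 (0.114) and Oser1 (0.116). Those of Ptcra were Mef2a (0.192), Emp1 (0.198) and Rragd (0.203). This difference grows with a probe set's own spread, and the SD over the arrays was 0.546 for Ptcra and 0.258 for Cd247. The median of all named probe sets was 0.637 for Ptcra and 0.442 for Cd247, so the values do not rank the members. The brighter Cd247 probe set and Ptcra, both lowest with Vbeta5, differed from each other by 0.351, and 29.7% of tested probe sets lay nearer to Cd247 than Ptcra did.

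Across the members, the SD between the 2 arrays of a group exceeded the SD of the group means for most probe sets. A mean of 2 arrays varies less than a single array, so the 2 SDs are not like measures and were not tested. The pooled SD within groups was 0.453 on the log2 scale for Cd3g against an SD of 0.314 over the 4 group means, 0.314 against 0.169 for Cd3d, 0.426 against 0.247 for Cd3e and 0.780 against 0.440 for the dim Cd247 probe set. For Ptcra the values were 0.447 and 0.464. The brighter Cd247 probe set had 0.152 within groups against 0.250 over the group means. Only for it and Ptcra was the SD of the group means the larger.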

How the data were processed

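Each array gave an intensity for 12488 probe sets of an Affymetrix mouse platform. The authors deposited normalized values, per the labels; the method is not given in the sources used here. The deposited intensity is linear, with a mean of 250.14 to 250.16 on every array after trimming each end, as scaling by a single factor gives. Control probe sets (66) were left out. Probe sets were named by the platform annotation, with symbols brought up to date in a RefSeq table (GRCm38.p6), also the source of the start regions: 10833 of 12422 probe sets had 1 symbol, 396 several and 1193 none.

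Values were analysed as log2(signal + 16.6), an offset set at the 20th percentile of the positive signals, so fold changes of dim probe sets are understated. Probe sets with a mean signal under 40.3 were left out (8281 tested). Precision is limited by having 2 arrays in a group. The 6 comparisons were fitted with limma 3.58.1 in R 4.3.3 on all 8 arrays (1 mean per group, eBayes with trend, 4 residual and 6.437 prior degrees of freedom), with two-sided p-values adjusted by Benjamini-Hochberg within a comparison. The fit was tried on simulated data with independent noise of a constant SD and no array effects. This does not show how it performs with the uneven spread of these arrays.

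The members and lists were chosen with earlier results of these data known. All members are named; a list gene is named where it passed, or, with none past the threshold, for the smallest p, comparison by comparison. Lists cover proximal TCR signalling, TCR chains and coreceptors, Notch and E protein regulators, other ITAM chains and markers of 11 cell types. The nearest profiles are the 3 closest named probe sets. Alternatives are given in the closing section.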

Additional observations from a re-analysis of the deposited data

How the results depend on the processing

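Under the 14 alternatives for each comparison no member passed (limma): the count was 0 in all 84 values, the lowest member adjusted p was 0.0587, and of 498 member fold changes 457 kept their sign. These covered a common median, quantile normalization, a halved offset, a floor, no filter, leaving out the dimmest 50%, no trend, the array number as a replicate block, the 4 arrays compared alone, the 3 arrays of lower RNA quality left out, and each array left out. The brighter Cd247 probe set and Ptcra kept their sign throughout for Vbeta5 against the overnight control. Same-numbered arrays deviated together at r = 0.104 to 0.347 across probe sets. Since the labels do not say what the numbers share and there are only 2, they were not used as pairs. With the replicate block the member count stayed 0 (lowest adjusted p = 0.212), while calls over all probe sets rose from 51 to 125 for Vbeta5 against the overnight control, 23 to 90 against Valpha2, 136 to 242 against control, 18 to 107 for the overnight control and 33 to 91 for Valpha2 against control.

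Values that changed sign were as follows, and the cause was not tested. Leaving out the 3 arrays of lower RNA quality left a single array in the overnight control, in Valpha2 and in Vbeta5. Comparisons among these groups then set a single array against a single array, and the spread came from the control arrays alone. With the 3 arrays left out, Vbeta5 against the overnight control gave -0.15 for Cd3g, -0.44 for Cd3d, -0.34 for Cd3e and 0.40 for the dim Cd247 probe set. Valpha2 against the overnight control gave -0.075, -0.52, -0.031 and 0.76 for the same 4, and Vbeta5 against Valpha2 gave -0.072, 0.077 and -0.31 for Cd3g, Cd3d and Cd3e. Quantile normalization gave -0.080 for Cd3d (Vbeta5 against overnight control) and -0.10 for Ptcra (overnight control against control). A common median gave -0.086 for the latter, 0.015 for the dim Cd247 probe set (Valpha2 against overnight control) and -0.034 for the brighter one (Valpha2 against control).

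Leaving out single arrays gave these ranges. For Vbeta5 against the overnight control they were -0.055 to 1.10 for Cd3g, -0.35 to 0.38 for Cd3d, -0.11 to 0.70 for Cd3e and -1.45 to 0.17 for the dim Cd247. For Valpha2 against it they were -0.14 to 1.01, -0.28 to 0.44, -0.0072 to 0.46 and -0.89 to 0.74 in the same order. Vbeta5 against Valpha2 ranged from -0.0074 to 0.18 (Cd3g), -0.30 to 0.17 (Cd3d) and -0.33 to 0.47 (Cd3e). The overnight control against control ranged from -0.063 to 0.66 (Cd3d) and -0.38 to 0.66 (Ptcra), and, with no change of sign, from -1.33 to -0.17 (Cd3g) and -0.98 to -0.21 (Cd3e). Vbeta5 against control ranged from -0.49 to 0.029 (Cd3g), -0.70 to 0.10 (Cd3e) and -0.44 to 0.97 (dim Cd247), and Valpha2 against control from -0.76 to 0.010 (Cd3e), -0.020 to 0.23 (Cd247) and -0.91 to 0.13 (Ptcra). Ptcra kept its sign from -1.42 to -0.37 for Vbeta5 against control and from -0.87 to -0.19 for Valpha2 against the overnight control.

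Calls over all probe sets moved more, in the order Vbeta5 against the overnight control, Vbeta5 against Valpha2, overnight control against control, Vbeta5 against control and Valpha2 against control. Without the trend they were 0, 0, 0, 22 and 0, and in the 4 arrays alone 29, 0, 35, 215 and 56. Calls with the 3 arrays left out are not given, since single arrays then stand for groups. With a common median they were 29, 0 and 10 for the first 3 and 11 for the last. Quantile normalization gave 10 for the overnight control and 19 for Valpha2 against control, and no filter 10 for the latter. With single arrays left out they ranged from 0 to 32, 0 to 21, 0 to 123, 0 to 56 and 0 to 8. Valpha2 against the overnight control had 0 calls, or 1 without Valpha2 array 2. The dim Cd247 probe set has no value without the dimmest 50%.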
